A study of Mus musculus with 2 samples.

Results

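The genes described here are 10 members of the MHC class I presentation machinery among the 33696 genes of the deposited matrices, measured in splenic CD8 T cells. They are the classical heavy chains H2-K1 and H2-D1, the non-classical heavy chains H2-Q4, H2-Q6, H2-Q7, H2-M3, H2-T22 and H2-T23, the shared light chain B2m, and Tap1, a subunit of the peptide transporter. The members were listed by name, and all 10 were found in both matrices. Their Ensembl identifiers there are ENSMUSG00000061232 (H2-K1), ENSMUSG00000073411 (H2-D1), ENSMUSG00000035929 (H2-Q4), ENSMUSG00000073409 (H2-Q6), ENSMUSG00000060550 (H2-Q7), ENSMUSG00000016206 (H2-M3), ENSMUSG00000056116 (H2-T22), ENSMUSG00000067212 (H2-T23), ENSMUSG00000060802 (B2m) and ENSMUSG00000037321 (Tap1). They were read in cells with at least 200 detected genes, under 10% mitochondrial UMIs (unique molecular identifiers, 1 per captured transcript), a UMI of Cd8a or Cd8b1 and a UMI of Cd3d, Cd3e or Cd3g. This kept 8717 of 9495 barcodes in the control library and 10699 of 12128 in the treated library.

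The cells came from spleens of wild-type C57BL/6 mice, were isolated as CD8 T cells on magnetic beads, and were profiled with 10x Genomics droplets that read transcripts from their 3' ends. The group called DHEA received dehydroepiandrosterone, an androgen precursor used to model polycystic ovary syndrome. It was injected under the skin each day for 21 days, at 40 mg/kg in 20 µL of sesame oil. The group called CTRL received the oil on the same schedule. Cells were pooled, the sources used here do not give the number of animals, and each group has 1 library. No difference below therefore has a replicate check and no test was run: the 95% intervals in brackets cover counting error only.

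MHC class I molecules carry short peptides from a cell's own proteins to its surface, where CD8 T cells read them. Proteasomes, including the immunoproteasome, cut the peptides. The transporter made of Tap1 and Tap2 moves them into the endoplasmic reticulum, tapasin (Tapbp) and its partners load them onto a heavy chain bound to B2m, and the complex then leaves for the cell surface. Classical heavy chains present varied peptides to CD8 T cells. Non-classical chains have narrower roles: H2-M3 presents formylated peptides, H2-T23 (Qa-1) presents leader peptides to NKG2A and related receptors, and H2-T22 is a ligand of certain gamma-delta T cells. T cells themselves express class I, and interferons raise the set through factors that include Irf1 and Nlrc5.

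The heavy chain genes are close copies of one another, and their promoters show it. RefSeq promoter windows (250 bases before to 50 after the start, GRCm38.p6) were given for 10 of 10 members. The 60-base stretches below lie upstream of the start and are written 5' to 3' on the gene's own strand, with matches to TTTCACTT, the interferon core and the NF-kB forms described next in capitals. Matches to CCAAT and TGACG are not marked. The stretches are shown because 7 of the 8 heavy chain genes share TTTCACTT there. The bases around it are nearly the same in some genes, such as H2-K1 and H2-D1, and differ more in H2-M3 and H2-T22.
H2-K1, chr17:34000414-34000473, minus strand: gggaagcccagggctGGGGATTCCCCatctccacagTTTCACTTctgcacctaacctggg
H2-D1, chr17:35262908-35262967, plus strand: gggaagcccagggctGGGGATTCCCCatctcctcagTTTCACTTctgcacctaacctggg
H2-Q4, chr17:35379428-35379487, plus strand: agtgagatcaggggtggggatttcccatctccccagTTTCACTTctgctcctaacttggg
H2-Q6, chr17:35424662-35424721, plus strand: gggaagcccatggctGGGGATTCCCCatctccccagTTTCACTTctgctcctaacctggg
H2-Q7, chr17:35439006-35439065, plus strand: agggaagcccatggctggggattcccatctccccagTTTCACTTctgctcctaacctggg
H2-M3, chr17:37270097-37270156, plus strand: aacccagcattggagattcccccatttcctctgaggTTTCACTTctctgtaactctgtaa
H2-T22, chr17:36042910-36042969, minus strand: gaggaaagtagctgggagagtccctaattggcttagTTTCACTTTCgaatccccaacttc
H2-T23, chr17:36032802-36032861, minus strand: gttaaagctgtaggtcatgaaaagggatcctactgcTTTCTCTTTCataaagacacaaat
B2m, chr2:122147530-122147589, plus strand: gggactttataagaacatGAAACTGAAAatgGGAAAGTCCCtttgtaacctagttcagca

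The 8-base run TTTCACTT stood in the windows of H2-K1, H2-D1, H2-Q4, H2-Q6, H2-Q7, H2-M3 and H2-T22, and in 1.60% of all 32851 windows on either strand. This motif was added after the sequences were seen. The interferon-stimulated response element core, searched as GAAA, any 2 bases and GAAA, stood in the windows of H2-T22, H2-T23 and B2m and in 3.44% of all windows. In H2-T22 it overlaps TTTCACTT. The 11-base NF-kB palindrome in capitals at the left of H2-K1, H2-D1 and H2-Q6 stood in 10 of all windows (0.0304%). A second NF-kB form, GGGA, any base and TTTCC, stood in B2m alone of the members and in 0.411% of windows. TGACG stood in 8 members (20.8% of windows) and CCAAT in 10 (37.4%), while CACGTG stood in 0 (7.15%). The Tap1 window held TGACG and CCAAT and no other of these motifs. A match describes letters in the window, not binding.

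Similarity also reaches the transcript ends that the assay reads. Of the 90-base windows in the last 400 bases of GENCODE M21 protein-coding transcripts, 32.2% of those of H2-Q6 were found in another gene, chiefly H2-Q7, and 33.5% of those of H2-T22 were found in H2-T10. The share was 16.1% for H2-T23 and 12.5% for H2-Q4, mostly with genes outside the class I family, 0.177% for H2-K1, and 0 for H2-D1, H2-Q7, H2-M3, B2m and Tap1. The counting of reads that match several genes is not described in the sources used here, so H2-Q6 and H2-T22 values are uncertain to that extent, and H2-Q6 and H2-Q7 are also given summed.

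Depth differed between the libraries. The gated cells held 49239407 UMIs in CTRL and 50077687 in DHEA, with medians of 5615 and 4483 UMIs per cell. Cd4, which the gate did not use, had 3 UMIs in all in CTRL and 4 in DHEA. Of the gate's own genes, Cd8b1 had 1017 CPM (UMIs per 1000000 UMIs, summed over the library's gated cells) in CTRL against 1266 in DHEA and Cd8a had 350 against 419, so the CD8 chains also stood higher in DHEA, while Cd3e had 662 against 701. Barcodes that passed the gene and mitochondrial limits but lacked the Cd8 or Cd3 UMIs were shallower, at medians of 3185 and 1613 UMIs. Between the libraries 51 barcodes were shared.

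The classical heavy chains stood higher in the DHEA library. H2-K1 had 109613 UMIs in CTRL and 131348 in DHEA, or 2226 and 2623 CPM, a log2 ratio of 0.24 [0.23, 0.25] and a fold of 1.18. H2-D1 had 1533 CPM in CTRL and 1730 in DHEA, a log2 ratio of 0.17 [0.16, 0.19]. The intervals of the libraries did not overlap for either gene, which is a statement about counting only. Those of B2m, at a log2 ratio of 0.05, did not overlap either, and the share over all genes was not computed. The DHEA cells were shallower, and their median cell held fewer UMIs of both classical chains: 12 of H2-K1 in CTRL and 11 in DHEA, and 8 and 7 of H2-D1. The sum of the pair had 3760 CPM in CTRL against 4353 in DHEA, a log2 ratio of 0.21 [0.20, 0.22].

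The non-classical heavy chains divided. H2-Q7, a Qa-2 gene, had 596 CPM in CTRL against 711 in DHEA, a log2 ratio of 0.25 [0.23, 0.28]. H2-Q6, its close copy, stood at 119 and 148 CPM, a log2 ratio of 0.32 [0.27, 0.37], the highest of the 10 members. Summed, the pair gave 715 and 860 CPM, a log2 ratio of 0.27 [0.25, 0.29], so the difference does not depend on how reads were divided between them. H2-M3, the least counted member with 2002 and 2459 UMIs, stood at 40.7 and 49.1 CPM, a log2 ratio of 0.27 [0.19, 0.36]. H2-T22 stood at 156 and 181 CPM, a log2 ratio of 0.21 [0.17, 0.26].

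H2-Q4 and H2-T23 did not share this difference. H2-Q4 had 168 CPM in CTRL against 170.3 in DHEA, a log2 ratio of 0.02 [-0.03, 0.06] whose interval holds 0. H2-T23 was lower in DHEA, at 245 CPM in CTRL and 224 in DHEA, a log2 ratio of -0.13 [-0.17, -0.10]. The 6 non-classical chains summed to 1325 CPM in CTRL and 1484 in DHEA, a log2 ratio of 0.16 [0.15, 0.18]. Since UMIs from 3' ends are not scaled to transcript length, levels are compared between libraries and cell states. A share of 1 gene's UMIs among several is likewise read only against the same share in another library or state.

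B2m, the light chain, and Tap1, the transporter subunit, differed from the classical chains in size or direction. B2m came to 2539 CPM in CTRL and to 2623 in DHEA, a log2 ratio of 0.05 [0.04, 0.06]. Tap1 was lower in DHEA, with 4172 UMIs in CTRL and 3826 in DHEA, or 84.7 and 76.4 CPM, a log2 ratio of -0.15 [-0.21, -0.09].

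**Figure D1:**
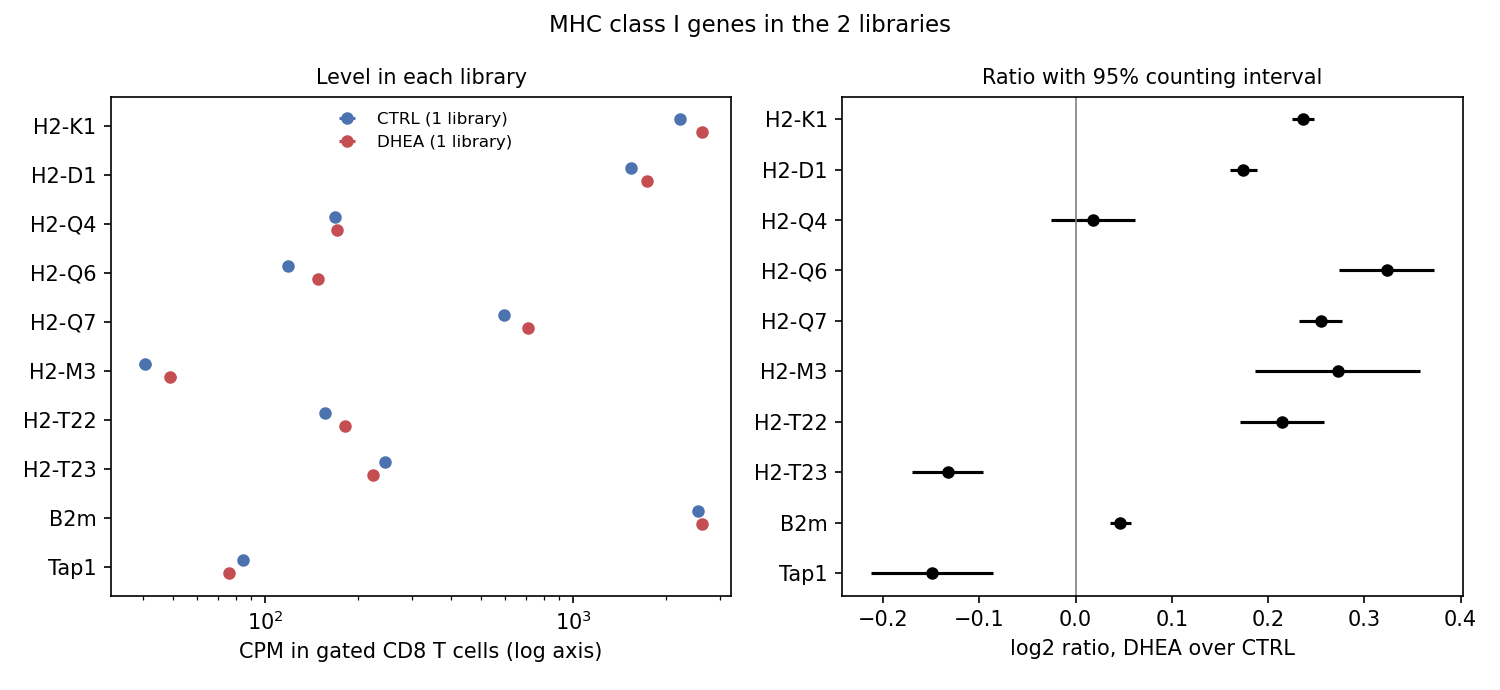
Level of each of the 10 members in the gated cells of the CTRL and DHEA libraries, in CPM of summed UMIs on a log axis, beside the log2 ratio of DHEA over CTRL with its exact 95% interval from counting error, 1 library per group. H2-Q6 has the highest ratio at 0.32, while H2-T23 and Tap1 lie below 0 at -0.13 and -0.15.

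Of the 10 members, 8 were higher in DHEA, as were 5204 of all 10515 measured genes, those with a total of 200 UMIs or more. Of the 3233 genes with at least as many UMIs as H2-M3, 1537 were higher. A mark of size, not a test, was set at 15% or more higher in DHEA or, on the other side, 15% or more higher in CTRL. DHEA was higher by that much for 5 members (H2-K1, H2-Q6, H2-Q7, H2-M3 and H2-T22), and CTRL for 0. Among all 10515 measured genes, 15.8% passed the mark in DHEA and 17.1% in CTRL. No member was 1.5-fold apart, where 1.81% of all genes were higher and 1.44% lower. The members' median log2 ratio was 0.19, beside -0.002 over all measured genes and -0.01 over the 3233 genes with at least as many UMIs as H2-M3. An H2-K1 ratio or a higher one was reached by 12.2% of all measured genes, and that of H2-Q6 by 6.80%. The members together took 0.771% of the UMIs in CTRL and 0.854% in DHEA.

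Other genes of the pathway lay in both directions. Of a list of 39 genes, 33 were measured, and 23 were higher in DHEA and 10 lower, with a median log2 ratio of 0.10. Of all measured genes, 5204 were higher and 5311 lower. The 15% mark was passed by 9 of the 33 pathway genes in DHEA and 4 in CTRL, against the shares of all genes given above. The catalytic immunoproteasome subunits Psmb8 and Psmb9 stood higher in DHEA, Psmb8 with 394 CPM in CTRL against 453 in DHEA (log2 ratio 0.20 [0.17, 0.23]) and Psmb9 at 189 and 239 CPM (0.34 [0.30, 0.38]). Of the loading complex, Tap2, the partner of Tap1, stood at 121 and 124 CPM (0.03 [-0.02, 0.09]), and Tapbp was lower in DHEA at 156 and 137 CPM (-0.19 [-0.24, -0.14]). The gene past 1.5-fold was H2-Q10, a secreted class I chain made mainly by the liver, with 117 UMIs in CTRL and 252 in DHEA (log2 ratio 1.08 [0.76, 1.41]).

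The regulators of class I transcription did not share a direction. Nlrc5, the class I transactivator, was lower in DHEA at 140 CPM in CTRL and 117 in DHEA, a log2 ratio of -0.25 [-0.30, -0.20]. Irf1 was higher in DHEA, at 151 and 173 CPM, a log2 ratio of 0.19 [0.15, 0.24]. The classical chains stood higher in DHEA, as did Irf1, Psmb8 and Psmb9, while Nlrc5, Tapbp and Tap1 stood lower there. A relation between these genes and the heavy chains was not tested.

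Genes listed as markers of other cell types were counted at low levels. Of the 10 listed class II genes all were detected, summing to 84.7 CPM in CTRL and 70.9 in DHEA, most of it from H2-DMa (1942 and 1797 UMIs), H2-Ob (1067 and 788) and H2-Oa (1029 and 863). The surface class II chains that mark B cells and dendritic cells were near 0: H2-Aa had 9 UMIs in CTRL and 3 in DHEA, H2-Ab1 10 and 3, H2-Eb1 9 and 6, and Cd74, the invariant chain, 87 and 67. Of 7 B cell markers, 6 were detected in each library, summing to 266 CPM in CTRL and 289 in DHEA. Of 7 myeloid markers, 6 were detected in CTRL, where C1qa was at 0, and 7 in DHEA, summing to 68.2 and 70.1 CPM. The 4 NK markers summed to 16.1 and 33.9 CPM, with Ncr1 at 0 in DHEA. Without the cells that held a UMI of H2-Aa, H2-Ab1, H2-Eb1 or Cd74, an alternative chosen after the data were seen, the classical sum had a log2 ratio of 0.21. Without the cells that held a UMI of any class II or other cell type marker it was 0.25.

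To place the members in cell states, the gated cells were clustered without the members, the pathway list and the class II genes, giving 15 clusters. Below, a gene stood above or below the rest in a cluster where its interval against the other cells of the same library lay wholly on that side of 0 in both libraries. Deeply counted genes pass that rule more readily, so shares are given over all 10515 measured genes and over the 3233 with at least as many UMIs as H2-M3. A cluster was given a state's name, as X-like, where at least 3 of its 10 leading genes were markers of that state, a rule chosen after the clusters were seen. The others are called by number and leading genes. Since the members were left out, their levels by cluster were not set by the clustering directly. They remain descriptions of 1 library each.

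The interferon-responding-like cluster (383 CTRL and 237 DHEA cells) had the highest H2-T22 and H2-T23 of any cluster in both libraries. H2-T22 stood at 307 CPM in its CTRL cells against 149 in the other CTRL cells, 2.06-fold, and at 295 against 178 in DHEA, 1.66-fold. H2-T23 stood at 396 against 238 CPM in CTRL, 1.66-fold, and at 380 against 220 in DHEA, 1.73-fold. Tap1 was 1.59-fold and 1.54-fold higher there and B2m 1.20-fold and 1.16-fold. The classical chains and the Qa-2 pair differed less: H2-K1 was 1.11-fold and 1.14-fold higher, H2-D1 1.06-fold in both, and H2-Q7 1.09-fold in CTRL and 0.995-fold in DHEA. H2-T22, H2-T23 and B2m are the members whose promoter window holds the interferon response core printed above, in the exact form searched. The Tap1 window does not. The windows of H2-K1, H2-D1, H2-Q4, H2-Q6, H2-Q7 and H2-M3 lack that form but hold TTTCACTT. Other forms of interferon element were not searched, and the part of any motif in these levels was not tested.

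Pathway genes also stood higher in the same cluster, as they did in the effector-like cluster described below. Of the 33 measured pathway genes, 12 stood above the rest and 0 below. Of all measured genes 2.53% stood above and 1.99% below (4.24% and 4.36% of the deeply counted ones). Among them were Tap2, Tapbp, Psmb8, Psmb9, Psmb10, Psme1, Psme2, Nlrc5, Irf1, Irf2 and H2-T24. Nlrc5 was 0.97 higher on the log2 scale in CTRL and 0.87 in DHEA, and Tapbp 0.75 and 0.72.

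The NF-kB-high-like cluster (472 CTRL and 410 DHEA cells) had another set. H2-Q6 stood at 206 CPM in its CTRL cells against 114 in the rest, 1.81-fold, and at 206 against 146 in DHEA, 1.41-fold. H2-Q4 was 1.46-fold and 1.35-fold higher, H2-Q7 1.25-fold and 1.13-fold, H2-D1 1.12-fold and 1.06-fold and H2-K1 by 0.19 and 0.14 on the log2 scale. H2-T22 was near its level elsewhere, at 1.06-fold and 1.08-fold, and H2-T23 stood at 1.01-fold and 1.12-fold. Of the pathway genes, 5 stood above the rest and 5 below, Psmb8 and Psmb9 among the latter, where 5.21% of all measured genes stood above and 8.53% below (10.9% and 16.8% of the deeply counted ones). The exact NF-kB palindrome printed above is in H2-Q6, H2-K1 and H2-D1 and not in H2-Q4 or H2-Q7. The printed stretches of H2-Q4 and H2-Q7 hold close variants of it at the same place, left in lower case. Such variants were not searched, so H2-Q4 and H2-Q7 cannot be said to lack an NF-kB site. The part of any motif in these levels was not tested.

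The effector-like cluster (184 CTRL and 446 DHEA cells, led by Gzma, Zeb2, S100a4, S100a6 and Gzmb) stood highest for most members. H2-K1 stood at 3090 CPM in its CTRL cells against 2208 in the rest and at 3734 against 2576 in DHEA, 1.40-fold and 1.45-fold. H2-D1 was 1.38-fold and 1.59-fold higher, H2-Q6 1.96-fold and 1.86-fold, H2-Q7 1.63-fold and 1.72-fold and H2-M3 1.71-fold and 1.86-fold. In CTRL it held the highest level of any cluster for H2-K1, H2-D1, H2-Q4, H2-Q6, H2-Q7, H2-M3 and B2m. In DHEA the same was true except that H2-Q4 was highest in the NF-kB-high-like cluster, and Tap1 was highest in the effector-like one. In this cluster 9 of the 10 members stood above the rest and 0 below. Of the 33 measured pathway genes, 13 stood above and 1 below. The shares were 12.4% above and 3.45% below for all measured genes, and 21.0% and 7.79% for the deeply counted ones. Myeloid markers summed to 90.2 CPM in CTRL and 130 in DHEA within the effector-like cluster, and NK markers to 180 and 131, above their levels in all gated cells. The part of those markers in the values was not tested.

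**Figure D2:**
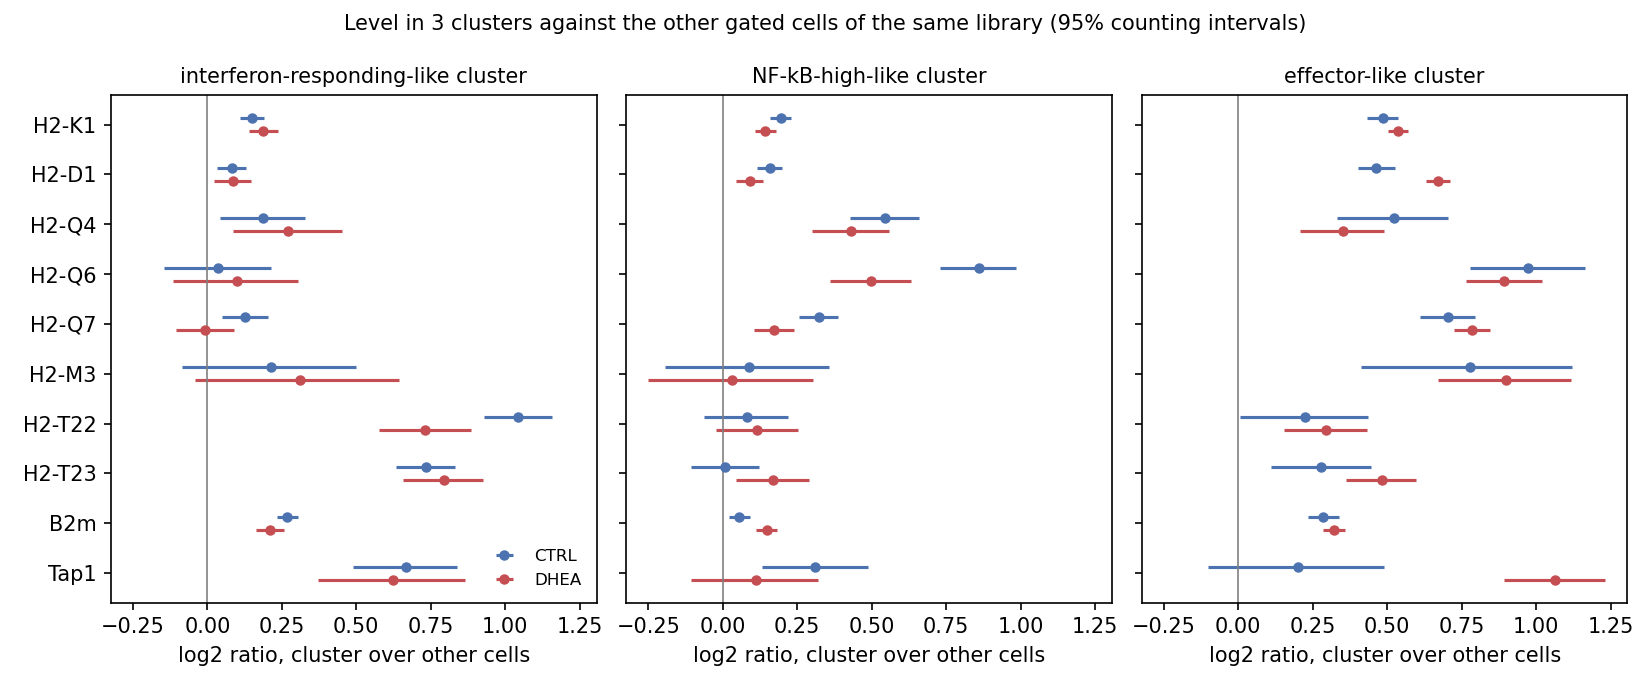
Log2 ratio of each member in a cluster over all other gated cells of the same library, CTRL and DHEA. The clusters are the interferon-responding-like, NF-kB-high-like and effector-like ones. Bars are exact 95% intervals from counting error. H2-T22, H2-T23 and Tap1 stand out in the interferon-responding-like cluster, and H2-Q6 and H2-Q4 in the NF-kB-high-like one. In the effector-like cluster H2-Q6, H2-Q7 and H2-M3 stand out, and Tap1 in DHEA (1.06, against 0.20 in CTRL).

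Most members were low in a cluster led by Klra receptor genes and called innate-like (687 CTRL and 971 DHEA cells). There 9 of the 10 members stood below the rest, as did 9.39% of all measured genes and 16.0% of the deeply counted ones. Tap1 was at 0.647-fold and 0.639-fold, H2-T22 at 0.689-fold and 0.763-fold and H2-K1 at 0.859-fold and 0.854-fold. The exception was H2-Q6, at 1.07-fold and 1.01-fold. A memory-like cluster (906 and 1217 cells) had 8 members below the rest, with H2-K1 at 0.925-fold and 0.899-fold. The share there was 9.11% of all measured genes and 16.6% of the deeply counted ones. Cluster 7, led by genes that include Auts2 and Lars2 and with a ribosomal protein share of 17.2% in CTRL and 22.1% in DHEA, combined low H2-K1 and B2m (0.722-fold and 0.805-fold, and 0.610-fold and 0.691-fold) with H2-Q4 at 1.27-fold in both and Tap1 at 1.27-fold and 1.39-fold. The proliferating-like cluster was too small for a ratio between libraries (30 CTRL and 73 DHEA cells), and 4 members stood below the rest, beside 9.09% of all measured genes and 23.5% of the deeply counted ones.

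The DHEA-over-CTRL difference of the classical chains was seen in each cluster that could be compared. Of 15 clusters, 14 had at least 50 cells in each library. H2-K1 was higher in DHEA in 14 of 14, from 0.14 to 0.40 on the log2 scale, with 14 intervals above 0. H2-D1 was higher in 14 of 14, from 0.07 to 0.36, with 12 intervals above 0, and H2-Q7 in 14 of 14, from 0.12 to 0.48, with all 14 above 0. Of all measured genes 2.13% were higher in DHEA in 14 of 14 clusters, and 5.51% of the deeply counted ones. Counts of intervals between libraries within clusters, here and in the next paragraph, were not made over all genes. H2-Q6 was higher in 13, with 8 intervals above 0, H2-T22 in 12 with 11 and H2-M3 in 11 with 6. With the mix of states held fixed, by weighting each cluster's level by its share of UMIs over both libraries, the classical sum had a log2 ratio of 0.22 and the non-classical sum 0.17.

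Of the other members, only Tap1 had intervals on both sides of 0. H2-Q4 was higher in 8 of 14 clusters, with 3 intervals above 0 and 0 below, and B2m in 10, with 8 above 0 and 0 below. H2-T23 was higher in 4, with 0 intervals above 0 and 4 below, from -0.39 to 0.08. Tap1 was higher in 3 clusters, with 1 interval above 0 and 4 below. In the effector-like cluster Tap1 stood at 97.1 CPM in CTRL (99 UMIs) and 153 in DHEA (310 UMIs), a log2 ratio of 0.66 [0.33, 1.00]. In the early-activated-like cluster (392 and 265 cells) its log2 ratio was -0.48 [-0.91, -0.07].

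The effector-like clusters of the libraries were not alike in make-up. Effector markers summed to 1979 CPM in the CTRL and 5084 in the DHEA cells, and 44 of 184 CTRL cells and 266 of 446 DHEA cells carried at least 1 UMI of the effector genes Klrg1, Gzmk, Gzmb and Gzma. These are 23.9% and 59.6% of the cluster, at median depths of 5167.5 and 4011 UMIs. In cluster 6, led by Selenop and Igf1r, the shares were 0.574% and 1.62% at 5471 and 4932 UMIs. Split on that point, a step added after the data were seen, Tap1 measured 133 CPM in CTRL and 171 in DHEA in the carrying cells, a log2 ratio of 0.36 [-0.19, 0.95]. In the cells without it Tap1 stood at 86.4 and 129 CPM, 0.58 [0.13, 1.03]. H2-K1 had log2 ratios of 0.19 [0.08, 0.30] and 0.20 [0.12, 0.28] in the same split.

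**Figure D3:**
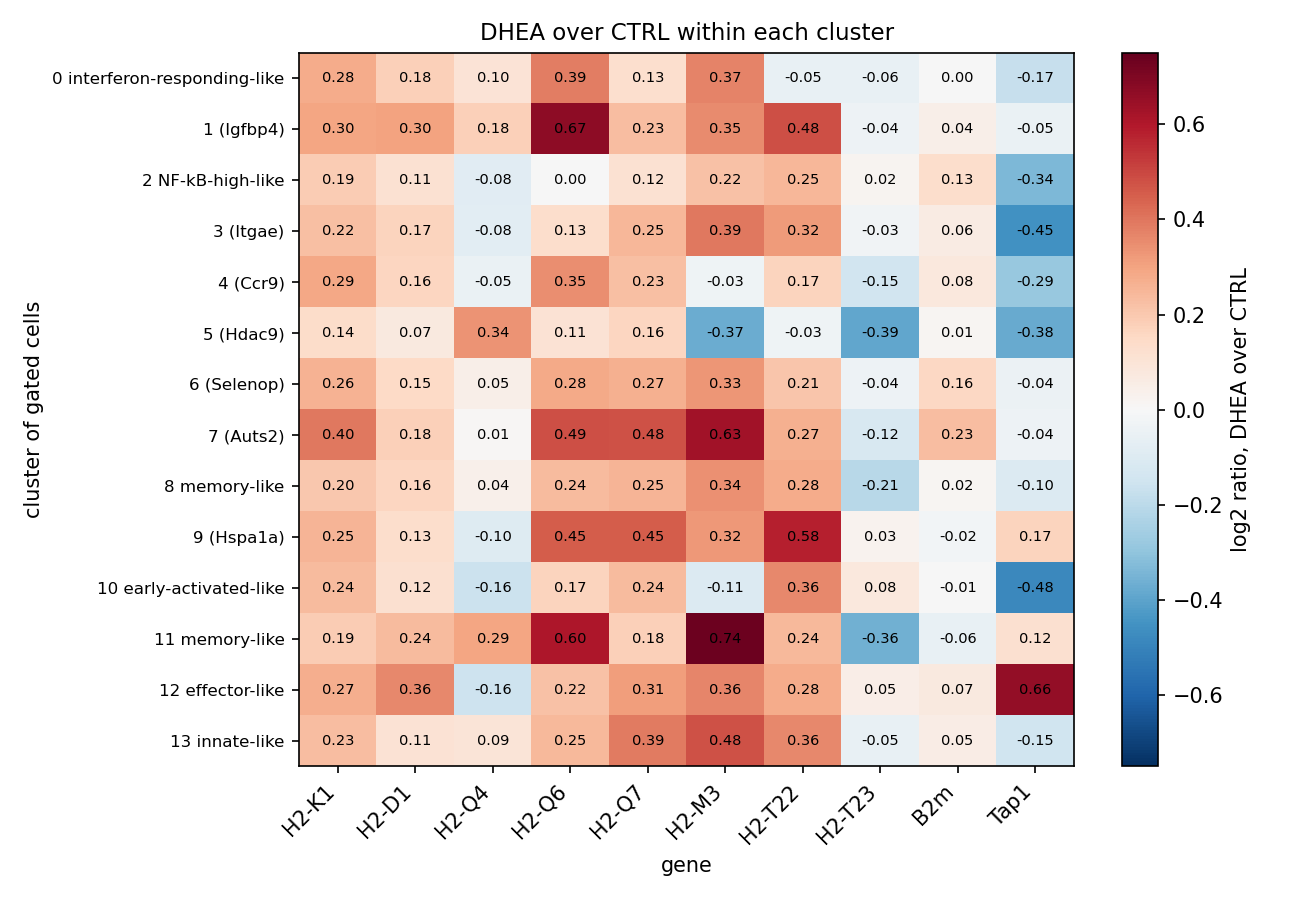
Log2 ratio of DHEA over CTRL for each member within each of the 14 clusters with at least 50 cells in both libraries, as a colour scale with the value printed. The columns of H2-K1, H2-D1 and H2-Q7 are above 0 in 14 of 14 clusters, and that of Tap1 is above 0 in 3.

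Classical and non-classical chains were also compared within each library, as a share of the UMIs of all 8 heavy chain genes. The non-classical share was 26.1% [25.9, 26.2] in CTRL and 25.4% [25.3, 25.6] in DHEA, lower by 0.637 percentage points (exact binomial intervals). Across clusters it ran from 21.8% to 29.96% in CTRL and from 23.4% to 29.8% in DHEA, the CTRL low being the 30-cell proliferating-like cluster. It was 29.5% in the interferon-responding-like CTRL cells and 27.3% in the DHEA ones, 27.9% and 26.8% in the NF-kB-high-like cluster and 27.5% and 26.3% in the effector-like cluster. The second memory-like cluster (288 and 976 cells) had 23.9% and 23.4%. The share was higher in DHEA in 3 clusters: innate-like (24.6% and 25.7%), cluster 9, led by Hspa1a and Hspa1b (25.3% and 26.8%), and proliferating-like (21.8% and 24.9%).

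The libraries differed in depth, so the members were also read in cells of like depth. In 6 bands of UMIs per cell, H2-K1, H2-D1, H2-Q6, H2-Q7, H2-M3 and H2-T22 were higher in DHEA in 6 of 6, B2m in 5 and H2-Q4 in 4, and H2-T23 and Tap1 in 0. The same count over all genes was not made. The size of the difference was not even: for H2-K1 the log2 ratio ranged from 0.17 to 0.44 and for H2-Q6 from 0.12 to 0.74, the highest of both in cells under 2000 UMIs, of which CTRL had 231 and DHEA 1862. For H2-M3, with the fewest UMIs, it ranged from 0.01 in cells of 2000 to 3000 UMIs, where the interval [-0.32, 0.34] holds 0, to 1.29 under 2000. The H2-Q6 and H2-Q7 sum ranged from 0.22 to 0.30.

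**Figure D4:**
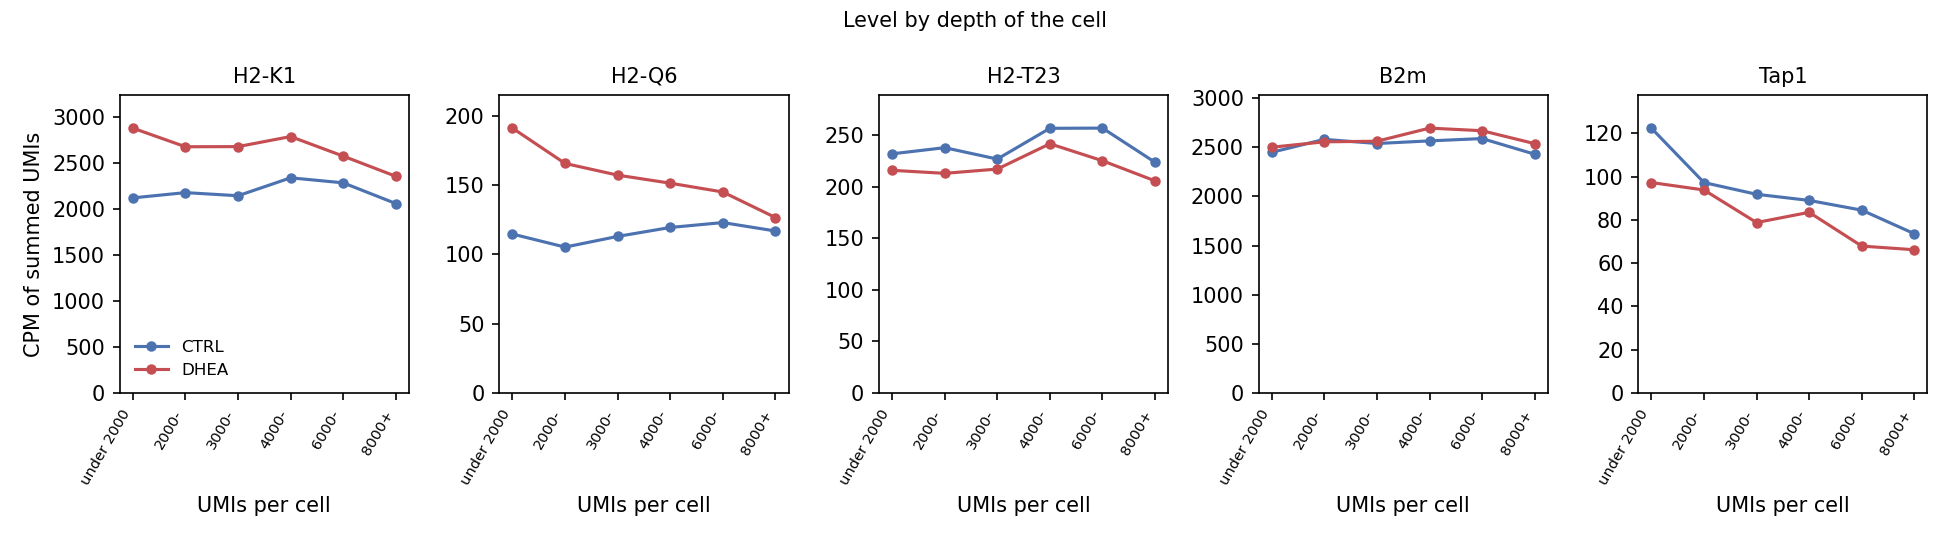
CPM of summed UMIs of 5 members in bands of UMIs per cell, for CTRL and DHEA, 1 library each. H2-K1 and H2-Q6 lie higher in DHEA in every band and farthest apart under 2000 UMIs, while H2-T23 and Tap1 lie lower in every band.

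Last, the genes whose pattern over states was most like that of 3 members were ranked by Pearson's r of log2(CPM + 1) over 29 sums, 1 per cluster and library with at least 50 cells, among 5821 genes. These points share library and depth, so r is a description. The members themselves were left out of the ranking, and their r is given after it. Outside the members, the patterns nearest to H2-K1 were those of Mat2b (0.77), Sdf2 (0.76), Supt4a (0.76) and Selenos (0.76). Those nearest to H2-Q7 were Supt4a (0.77), Hsbp1 (0.75), Tmbim6 (0.75) and Cdc42se1 (0.72). Those nearest to Tap1 were Sp140 (0.77), Tap2 (0.72), Snx2 (0.70) and Irf9 (0.68). Among the members, r with H2-K1 was 0.89 for H2-D1, 0.84 for H2-Q7 and 0.80 for B2m, but 0.26 for Tap1. With H2-Q7 it was 0.84 for H2-D1, 0.81 for H2-M3 and 0.80 for H2-Q6.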

How the data were processed

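The authors' deposited files are unnormalized UMI counts for each gene in each barcode. Per the file headers, Cell Ranger 8.0.1 wrote them. Seurat 4.3.0 and the mm39 genome stand in the submitters' processing notes with no role given, and no filter on barcodes is stated. Promoter sequences and their coordinates are RefSeq's on GRCm38.p6, a different build, and served as sequences only.

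UMIs were summed over the gated cells of each library. CPM carry exact Poisson intervals and log2 ratios exact 95% intervals from the split of the pair of counts. These cover counting error only. A gene was measured where its total reached 200 UMIs. Clusters came from log values of counts brought to 10000 in each cell, 2000 variable genes centred by library, 30 principal components, 15 neighbours and the Leiden method at resolution 1 (Python 3.11.15, scanpy 1.11.5, igraph 0.11.9). R 4.3.3 with edgeR 4.0.16 served for TMM factors only. Doublets were left in, and an alternative dropped the cells of highest total UMIs, at 0.8% per 1000 cells. The 51 shared barcodes were kept. The ratio step was tested on simulated counts.

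All 10 members were named. From the pathway list, genes past 1.5-fold were named, and Nlrc5, Tap2, Tapbp, Psmb8, Psmb9 and Irf1 always. Some genes of the lists are counted but not reported here by name. Fold and interval counts over lists are descriptions. The members and lists were chosen with earlier results of these data known.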

Additional observations from a re-analysis of the deposited data

Results flagged for a closer look

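Tap1 differed in opposite directions between cell states under the same contrast, with intervals on either side of 0. Its log2 ratio of DHEA over CTRL was 0.66 [0.33, 1.00] in the effector-like cluster, the 1 cluster with an interval above 0, and -0.48 [-0.91, -0.07] in the early-activated-like cluster, the lowest of the 4 with an interval below 0. The difference between these clusters was not tested, since each has 1 library per group and the intervals cover counting error only. How many of all measured genes had intervals on both sides of 0 was not counted. In the effector-like cluster 23.9% of CTRL and 59.6% of DHEA cells carried a UMI of the 4 effector genes. Tap1 had a log2 ratio of 0.36 [-0.19, 0.95] in the carrying cells and 0.58 [0.13, 1.03] in the others.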

How the results depend on the processing

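No paired analysis was possible because each group has 1 library, and for the same reason no library could be left out. Over 13 settings the log2 ratio of DHEA over CTRL ranged from 0.22 to 0.27 for H2-K1, 0.15 to 0.23 for H2-D1, 0.23 to 0.32 for H2-Q7, 0.30 to 0.43 for H2-Q6, 0.21 to 0.35 for H2-M3, 0.21 to 0.29 for H2-T22, 0.02 to 0.07 for B2m, -0.02 to 0.08 for H2-Q4, -0.21 to -0.08 for H2-T23 and -0.23 to -0.09 for Tap1. The classical sum was 0.23 with TMM factors, 0.24 with median-of-ratios factors, 0.25 with cells weighted equally, 0.25 with each cell thinned to 1000 UMIs, 0.24 in cells of 3000 to 6000 UMIs, 0.23 without the cells of highest UMIs, 0.25 without cells with a UMI of any class II or other cell type marker (1318 CTRL and 2214 DHEA cells left) and 0.19 without the effector-like cluster, the last chosen after seeing the data. The non-classical sum in the same order, leaving out the highest UMI setting, was 0.19, 0.19, 0.19, 0.18, 0.18, 0.19 and 0.15. Thinned, the non-classical share differed by -0.895 percentage points. Without centring genes within each library before clustering, the ratio of the classical sum at a fixed mix of states was 0.20. In that clustering H2-K1 and H2-Q7 were higher in DHEA in 14 of 14 clusters, H2-D1 in 13 and H2-Q6 in 12. Without a filter on low counts CTRL was 15% higher for 27.4% of genes, and 8.85% were past 1.5-fold higher and 12.7% past 1.5-fold lower in DHEA. With at least 1000 UMIs, 0.946% and 0.486% were 1.5-fold higher and lower. Counts limit H2-M3 and Tap1 most within small clusters.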
